A study of Mus musculus with 12 samples.

Results

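TRBV3, TRBV17, TRBV23, TRBV24 and TRBV30 are 5 variable genes of the mouse T cell receptor beta locus (TRB). They were picked by name for their low use in tumour T cells of this series and for being absent from a list of TRBV genes on which viral superantigens act in BALB/c mice. The measured values that chose them were their numbers of productive and not productive beta rearrangements, so the numbers pooled over libraries are given here as a description and not tested. Of 10174 distinct productive beta rearrangements in 6 receptor libraries, 432 used these genes (4.25%, exact 95% interval 3.86 to 4.66). Of 1391 distinct rearrangements that were not productive, 198 used them (14.2%). A distinct rearrangement with a called CDR3 joined 1 V gene and 1 J gene through 1 CDR3 nucleotide sequence and was counted once per library. Of the 1391 that were not productive, 1018 had no called CDR3. These were told apart by contig length in place of sequence, so their number is less certain.

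The cells were CD45+ immune cells sorted from mammary tumours of BALB/c mice. The series had 12 samples, and its receptor contigs came from 5′ single-cell libraries enriched for T cell receptor transcripts. The libraries are called by the names used in the receptor table, which the labels do not define. CSF1R, CTX, CTX2 and Combined were labelled treated. PBS2 was treated by its receptor record and untreated by its paired expression record. PBS1 was labelled untreated. The treatment named for the series was a 3-week course of cyclophosphamide, an alkylating drug, with pexidartinib, an inhibitor of the macrophage growth factor receptor CSF1R. Age, sex, tumour line and the number of animals per library were not given in the labels, so the spread between libraries may be technical. Combined held 7843 of the 10174 productive rearrangements, CSF1R 879, CTX2 514, PBS2 402, CTX 395 and PBS1 141. Total UMIs per library were between 6807 and 121305. Cell barcodes present in at least 2 libraries numbered 50 among 11518 cells, and no such barcode carried the same rearrangement of these genes in both libraries.

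A beta chain gene is built in the thymus by joining a V, a D and a J segment. The joins gain and lose bases at random, and the resulting stretch, the CDR3, starts at the last conserved cysteine of the V gene and ends at a conserved phenylalanine of the J gene. A join that keeps the reading frame without a stop codon is in general called productive, and one that does not is silent. A T cell can thus carry a silent rearrangement on one chromosome beside the working one on the other. The status used below is the one deposited for each contig and was not derived again from the join. V genes differ widely in how often they are joined and in how often the resulting chain survives thymic selection.

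The RefSeq gene table for GRCm38.p6 placed all 5 genes on chromosome 6 and listed each as a V segment. TRBV3 (older name Tcrb-V16) lay at chr6:41048394-41048824 and TRBV17 (Tcrb-V9) at chr6:41163092-41163556. TRBV23 (Tcrb-V20) lay at chr6:41216073-41216526, just before TRBV24 (Tcrb-V17) at chr6:41218091-41218557, and TRBV30 (Tcrb-V18) lay at chr6:41281376-41281990. TRBV24 had 0 contigs of any kind in the 6 libraries, in called cells or outside them. A count of 0 among 10174 productive rearrangements allows a share of up to 0.0295%. Whether the receptor reference used by the authors held TRBV24 is not given in the sources used here, so all results below concern the other 4 genes.

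CDR3 sequences of the 4 genes are shown because they carry the main difference among them. Each is written 5′ to 3′ from the first base of the CDR3 as deposited, and capitals mark the 9 bases that most often open the CDR3s of that gene. The first set holds the productive TRBV3, TRBV17 and TRBV30 rearrangements with the most UMIs, the second TRBV23 rearrangements deposited as productive, the third TRBV23 rearrangements deposited as nonproductive, and the last nonproductive rearrangements of TRBV3 and TRBV17.
TRBV3 with TRBJ2-7, Combined, productive, 114 UMIs: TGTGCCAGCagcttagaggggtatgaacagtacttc
TRBV3 with TRBJ1-4, CTX2, productive, 57 UMIs: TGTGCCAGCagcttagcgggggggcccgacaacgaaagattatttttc
TRBV17 with TRBJ1-2, Combined, productive, 68 UMIs: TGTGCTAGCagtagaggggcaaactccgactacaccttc
TRBV17 with TRBJ2-1, PBS1, productive, 67 UMIs: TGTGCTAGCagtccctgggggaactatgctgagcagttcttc
TRBV30 with TRBJ1-4, Combined, productive, 32 UMIs: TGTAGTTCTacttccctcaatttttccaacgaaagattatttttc
TRBV30 with TRBJ2-1, Combined, productive, 22 UMIs: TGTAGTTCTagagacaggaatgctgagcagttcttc
TRBV23 with TRBJ2-5, Combined, productive, 14 UMIs: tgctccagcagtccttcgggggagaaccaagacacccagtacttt
TRBV23 with TRBJ2-5, Combined, productive, 5 UMIs: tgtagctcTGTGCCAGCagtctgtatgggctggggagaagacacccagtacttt
TRBV23 with TRBJ2-4, Combined, productive, 5 UMIs: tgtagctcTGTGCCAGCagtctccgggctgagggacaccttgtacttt
TRBV23 with TRBJ1-4, PBS2, productive, 3 UMIs: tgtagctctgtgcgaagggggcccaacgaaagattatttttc
TRBV23 with TRBJ2-7, CSF1R, nonproductive, 4 UMIs: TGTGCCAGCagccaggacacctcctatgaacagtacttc
TRBV23 with TRBJ1-5, Combined, nonproductive, 4 UMIs: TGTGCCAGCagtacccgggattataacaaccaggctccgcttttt
TRBV23 with TRBJ1-1, Combined, nonproductive, 4 UMIs: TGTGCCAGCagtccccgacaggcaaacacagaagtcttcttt
TRBV3 with TRBJ2-7, Combined, nonproductive, 1 UMI: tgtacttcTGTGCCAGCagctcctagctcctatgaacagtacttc
TRBV17 with TRBJ2-7, CTX, nonproductive, 2 UMIs: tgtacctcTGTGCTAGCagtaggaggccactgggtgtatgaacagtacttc
TRBV17 with TRBJ2-3, CSF1R, nonproductive, 2 UMIs: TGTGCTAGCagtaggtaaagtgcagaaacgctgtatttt

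TRBV23 stood apart from the other 3 genes in where its called CDR3 began. In 20 of its 22 productive rearrangements the usual opening, TGTGCCAGC, lay after 8 further bases, and in none of the 22 did it stand at the first base. The 8 bases are not a whole number of codons, so those CDR3s read the opening in another frame. Read in the frame of the opening, the 8 bases of TRBV23, tgtagctc, hold the stop codon TAG. At the same place the displaced forms of TRBV3, tgtacttc, and TRBV17, tgtacctc, hold TAC. Among the 44 TRBV23 rearrangements deposited as nonproductive with a called CDR3, 37 began at the opening itself. Of these 37, 33 held no stop codon within the CDR3, but a CDR3 called from the opening leaves out the bases before it. Over all 44 the share without a stop was 86.4%, against 72.9% of 314 nonproductive CDR3s outside the 5 genes and 92.7% in TRBV31. All 44 ended in a phenylalanine codon, but so did every other called CDR3 of the 4 genes.

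TRBV3 carries the same 9-base opening, and its productive rearrangements ran the other way. Of 187 productive TRBV3 rearrangements, 186 began at the opening and 0 had it after 8 bases. TRBV17 began at its opening, TGTGCTAGC, in 173 of 176 productive rearrangements, and TRBV30 began at TGTAGTTCT in 43 of 47. The displaced form made up 5 of 10 nonproductive TRBV17 rearrangements and 1 of 5 nonproductive TRBV3 rearrangements, while 3 of those 5 began at the opening. Outside the 5 genes it made up 45 of 314 nonproductive rearrangements with a called CDR3 (14.3%). Another 86 of the 314 began at the gene's own opening (27.4%). TRBV30 had no nonproductive rearrangement with a called CDR3.

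Over the 18 TRBV genes outside the 5, productive rearrangements began at the gene's own most frequent opening in a median of 98.0% of cases, with a range of 52.8 to 100%. The displaced form occurred in 27 of their 9742 productive rearrangements (0.277%), spread over 3 genes, and in none of the 18 genes did it outnumber the usual form. By library, the displaced TRBV23 form accounted for 2 of 2 productive rearrangements in CSF1R, 1 of 1 in CTX, 17 of 18 in Combined and 0 of 1 in PBS2. CTX2 and PBS1 held no productive TRBV23. Neither exception matched the opening: the Combined one was the TRBV23 rearrangement with the most UMIs, 14, and the PBS2 one began with the same 8 bases but left the opening part way. The germline sequence of TRBV23 in BALB/c was not examined. Why the status differed, and whether the TAG before the opening bears on it, was not tested.

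**Figure D1:**
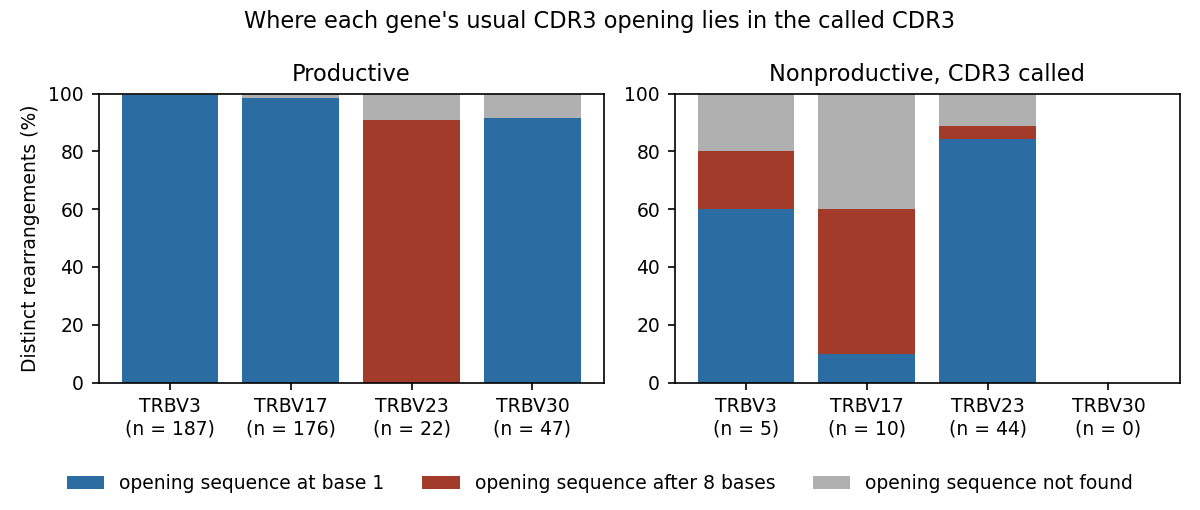
Share of distinct rearrangements (vertical axis, %) of each gene in which the gene's usual 9-base opening lies at the first base of the called CDR3, lies after 8 bases, or is not found, for productive rearrangements on the left and nonproductive ones with a called CDR3 on the right. In TRBV23 the productive bar is mostly the displaced form, 20 of 22, and the nonproductive bar mostly the usual form, 37 of 44.

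By productive status the 4 genes fell into a low one and 3 high ones. TRBV23 was productive in 22 of 140 distinct rearrangements (15.7%, 10.1 to 22.8), with 44 nonproductive and 74 that had no called CDR3. TRBV3 was productive in 187 of 229 (81.7%, 76.0 to 86.5), TRBV17 in 176 of 210 (83.8%, 78.1 to 88.5) and TRBV30 in 47 of 51 (92.2%, 81.1 to 97.8). Outside the 5 genes 9742 of 10935 rearrangements were productive (89.1%).

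Of the 4 genes, 3 lay under 90% productive, and so did 59.1% of the 22 TRBV genes with a rearrangement, so a value under 90% was common. TRBV12-1, one of the genes closest to these in use, stood at 21.3%, and TRBV26 and TRBV21, the others, at 33.3% and 66.7%. TRBV13-2, the most used gene, stood at 95.0%. The values of TRBV3 and TRBV17 depended on which contigs were counted. With contigs of at least 2 UMIs, TRBV3 was 91.2% and TRBV17 91.1% productive, and with rearrangements lacking a called CDR3 left out they were 97.4% and 94.6%. TRBV23 stayed at or under 33.3% under every alternative tried.

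**Figure D2:**
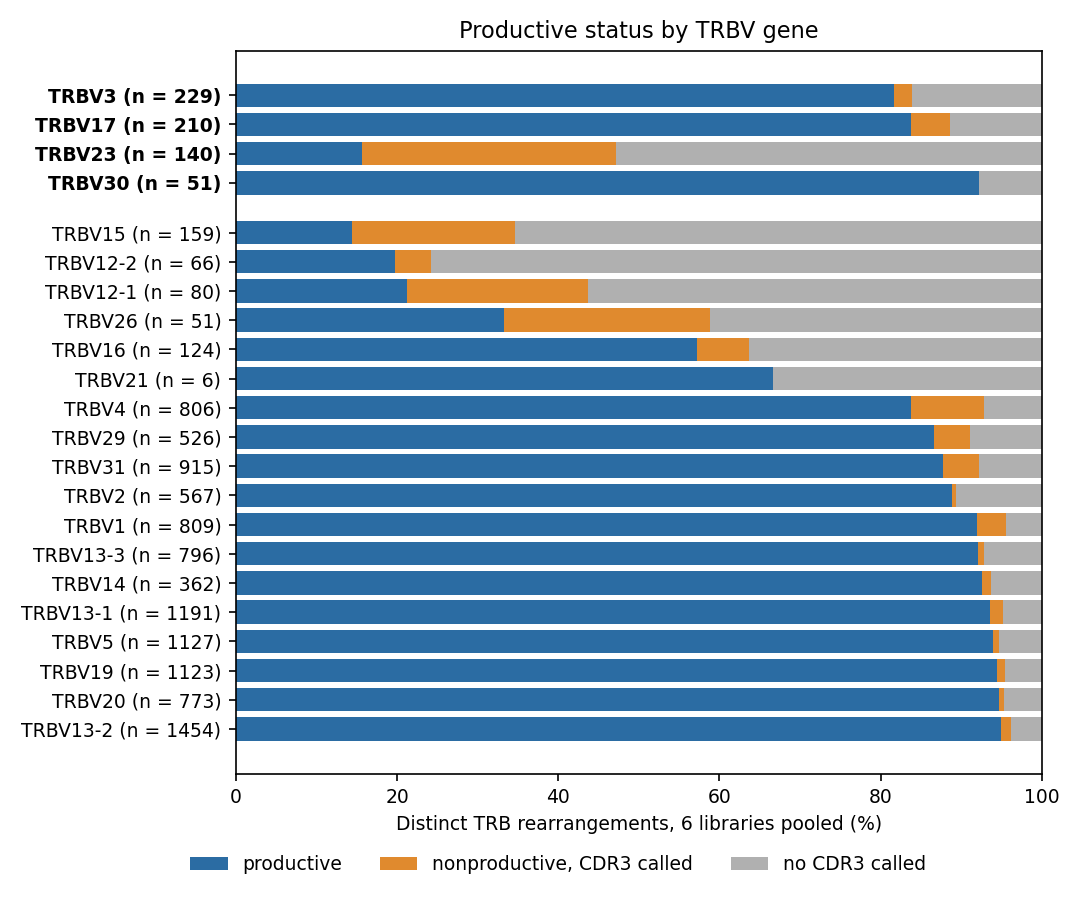
Distinct rearrangements of each TRBV gene (rows, number in brackets) by deposited status, in percent (horizontal axis, 6 libraries pooled), with TRBV3, TRBV17, TRBV23 and TRBV30 in bold at the top and the other genes below from the lowest productive share to the highest. TRBV23 at 15.7% productive falls between TRBV15 at 14.5% and TRBV12-2 at 19.7%, while TRBV3, TRBV17 and TRBV30 lie between 81.7% and 92.2%.

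TRBV23 chains deposited as productive also had few transcripts and seldom stood alone in a cell. Their median was 2 UMIs per rearrangement, with a highest value of 14. The medians were 9 UMIs for TRBV3, 16 for TRBV17 and 6 for TRBV30, against 9 over the genes outside the 5. For rearrangements that were not productive the medians lay at 1 or 2 UMIs in all 4 genes. The highest among these were TRBV3 rearrangements of Combined with no called CDR3, at 24 and 17 UMIs.

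Another productive beta contig was present in the same cell for 20 of the 22 productive TRBV23 contigs (90.9%, 70.8 to 98.9). By library this was 2 of 2 in CSF1R, 1 of 1 in CTX, 16 of 18 in Combined and 1 of 1 in PBS2. The share was 21.9% of 192 contigs for TRBV3, 26.2% of 183 for TRBV17 and 23.4% of 47 for TRBV30, against 20.9% of 11131 contigs of genes outside the 5. TRBV3, TRBV17 and TRBV30 had intervals that held the value of the genes outside the 5, and TRBV23 did not. Of the lowest genes outside the 5, TRBV12-1 had 36.4% of 22, TRBV26 41.2% of 17 and TRBV21 3 of 4. Their intervals also held that value. TRBV15, near TRBV23 in productive share, had 54.2% of 24 (32.8 to 74.4), and TRBV12-2 had 23.1% of 13. A raised share was thus not particular to TRBV23.

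A productive TRBV23 contig had the most UMIs of the productive beta contigs of its cell in 4 of 22 cases, all in Combined. For 2 of the 22 the cell had no other productive beta contig, so these led by default. TRBV3 led in 168 of 192 (87.5%), TRBV17 in 172 of 183 (94.0%) and TRBV30 in 40 of 47 (85.1%), against 88.8% for genes outside the 5. Nonproductive TRBV23 contigs had a productive partner in 42 of 44 cases, a share close to that of the productive ones. Such a share was common among nonproductive contigs, with 318 of 363 outside the 5 genes (87.6%) and 10 of 10 in TRBV17. When cells with at least 2 productive beta or at least 3 productive alpha contigs were left out, 1.80% of 111 TRBV23 rearrangements were productive. That filter removes every productive contig with a productive beta partner, so the low value follows in part from its construction. Doublets and free RNA in the droplets were not tested as a source of these contigs.

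**Figure D3:**
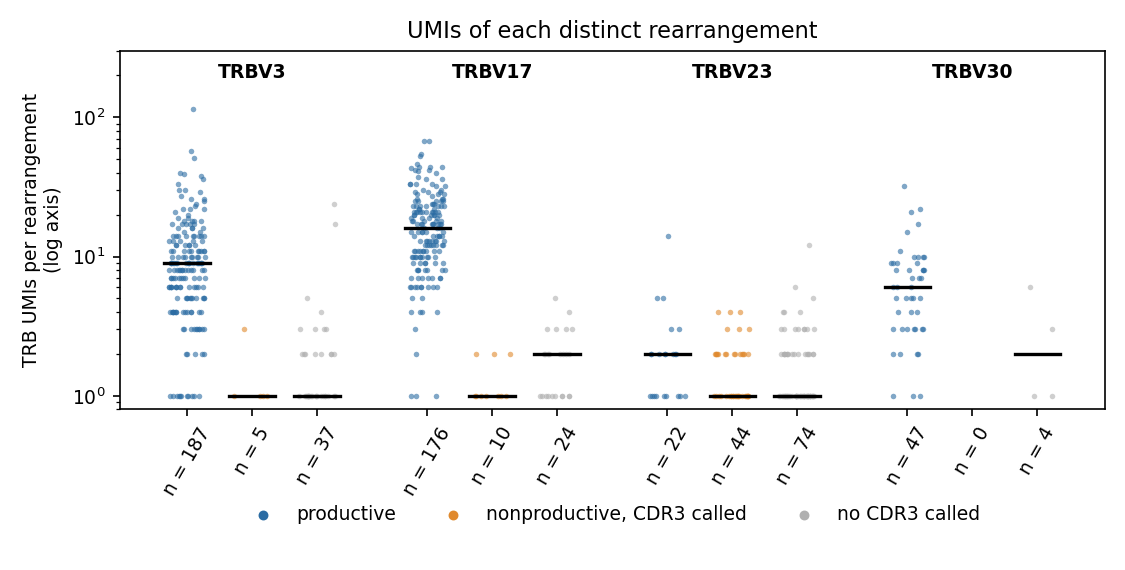
UMIs of each distinct rearrangement (points, log axis) by gene and deposited status, 6 libraries pooled, with black bars at the medians and the number of rearrangements under each column. Productive rearrangements have medians of 9 for TRBV3, 16 for TRBV17 and 6 for TRBV30 but 2 for TRBV23, next to medians of 1 for its other classes.

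Each of the 4 genes made up at most 3.55% of productive rearrangements in any library, and TRBV3 and TRBV17 lay above TRBV23 and TRBV30 in each. TRBV3 made up 1.71% of productive rearrangements in CSF1R, 2.78% in CTX, 3.11% in CTX2, 1.68% in Combined, 2.24% in PBS2 and 2.84% in PBS1. TRBV17 made up 2.16% in CSF1R, 1.77% in CTX, 1.17% in CTX2, 1.66% in Combined, 2.24% in PBS2 and 3.55% in PBS1. These 2 genes overlapped throughout, and TRBV3 was the higher in 3 of 6 libraries.

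TRBV30 made up 0.455% in CSF1R, 1.52% in CTX, 0.389% in CTX2, 0.421% in Combined, 0.249% in PBS2 and 0.709% in PBS1, under TRBV17 in 6 of 6 libraries. TRBV23 made up 0.228% in CSF1R, 0.253% in CTX, 0.230% in Combined and 0.249% in PBS2, with 0 in CTX2 and PBS1. A count of 0 allows up to 0.584% in CTX2 and up to 2.13% in PBS1. The exact intervals of TRBV23 and TRBV30 overlapped in every library, in Combined with 0.136 to 0.362% for TRBV23 and 0.290 to 0.590% for TRBV30. In PBS2 each gene had 1 of 402 rearrangements.

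Averaged over libraries, the shares were 2.39% ± 0.611 for TRBV3, 2.09% ± 0.811 for TRBV17, 0.624% ± 0.463 for TRBV30 and 0.160% ± 0.124 for TRBV23 (SD, n = 6 libraries). From the lowest of 23 TRBV genes they ranked 11, 10, 8 and 3. TRBV3 and TRBV17 thus stood near the middle of the order, so low use describes TRBV23 and TRBV30 better than them. The lowest genes outside the 5 were TRBV21 at 0.0253%, TRBV26 at 0.218% and TRBV12-1 at 0.360%. TRBV13-2 was the highest at 14.8%.

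Treated libraries could be set beside 1 untreated library only. A two-sided exact permutation test of mean shares cannot go below p = 0.2 with 4 libraries against 1, so no gene could pass, the 0% of 23 TRBV genes called was fixed by the design, and the differences are given as values without a p. TRBV17 averaged 1.69% ± 0.410 in the 4 treated libraries (SD), against 3.55% in PBS1, a difference of -1.86 points. PBS1 lay above all 4 treated libraries for TRBV17, yet its value is 5 of 141 rearrangements and its interval, 1.16 to 8.08%, covers every treated value. PBS1 lay outside the treated range for 60.9% of the 23 TRBV genes, and for 1 of these 5 genes.

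The TRBV17 difference depended on cells with several receptor chains. Without cells of at least 2 productive beta or at least 3 productive alpha contigs, TRBV17 averaged 1.53% in treated libraries, against 1.77% in PBS1 (-0.244 points).

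TRBV3 averaged 2.32% ± 0.736 in treated libraries, against 2.84% in PBS1 (-0.515 points). TRBV30 averaged 0.696% ± 0.549 in treated libraries, against 0.709% in PBS1 (-0.0132 points), and the difference was 0.0671 points without CSF1R, 0.0891 without CTX2 and 0.0785 without Combined, so its sign rests on single libraries. TRBV23 averaged 0.178% ± 0.119 in treated libraries, against 0% in PBS1 (0.178 points), where a count of 0 allows up to 2.13%. Combined and CTX2 carry sample titles that begin with letters, where those of the other libraries begin with a number, and both are treated. Without them, CSF1R and CTX against PBS1 gave a TRBV17 difference of -1.58 points.

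**Figure D4:**
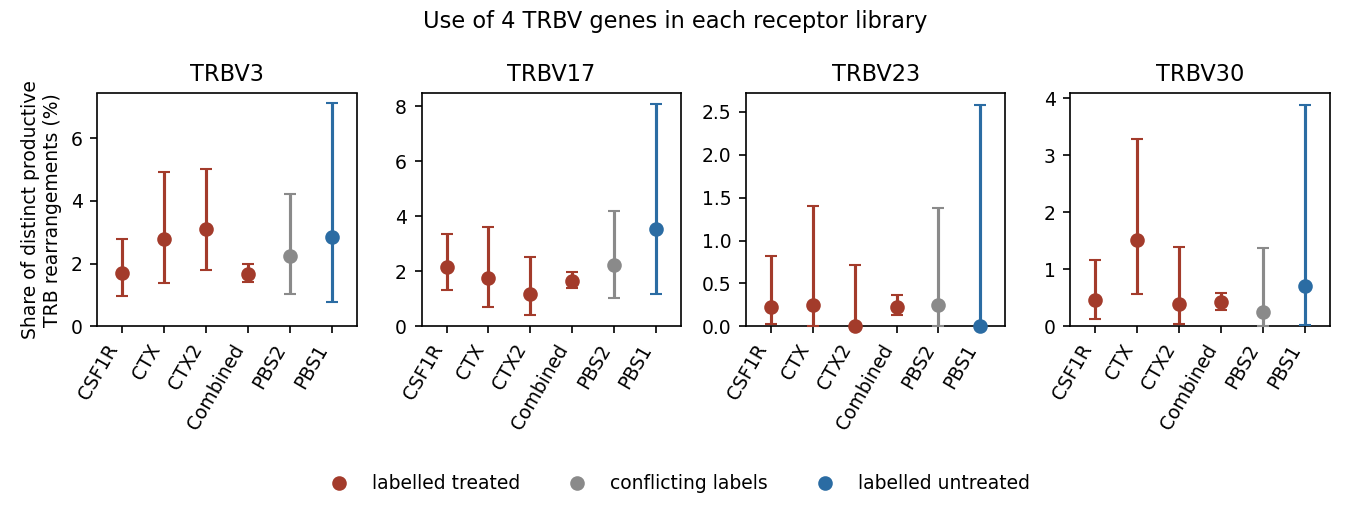
Share of distinct productive beta rearrangements (vertical axes, %, scaled by gene) in each library for TRBV3, TRBV17, TRBV23 and TRBV30, with points for values and bars for exact 95% intervals that cover counting error only. Intervals are narrow in Combined with 7843 rearrangements and wide in PBS1 with 141, and for each gene the PBS1 interval spans the treated values.

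TRBV3 joined the second J cluster more often than other genes. The locus holds 2 clusters, each with its own D gene, J genes and constant gene. Joins to TRBJ2 made up 73.3% of TRBV3 rearrangements in CSF1R, 81.8% in CTX, 62.5% in CTX2, 78.0% in Combined, 88.9% in PBS2 and 75.0% in PBS1. The genes outside the 5 had between 57.3% and 64.3%, and TRBV3 was above them in 6 of 6 libraries, though by under 1 point in CTX2.

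In Combined, which has the depth for a test, 103 of 132 TRBV3 rearrangements used TRBJ2 (78.0%, 70.0 to 84.8), against 60.6% of 7711 of all other TRBV genes. The log2 odds ratio was 1.19 (two-sided Fisher's exact test, adjusted over 21 genes p = 6.32e-04), and 33.3% of the 21 genes passed the same test in either direction. TRBV26 was among these and higher than TRBV3, with TRBJ2 in 11 of 11 (log2 odds ratio 3.89, adjusted Fisher p = 0.0295). High TRBJ2 use was thus not particular to TRBV3. In the other 5 libraries pooled the TRBV3 share was 74.5% of 55, against 62.1%, with an adjusted Fisher p of 0.325. TRBV17 had 69.2% in Combined (log2 odds ratio 0.53, adjusted Fisher p = 0.149) and 76.1% of 46 in the other 5 libraries. It passed only with all 6 pooled (71.0%, against 61.1% in all other genes, adjusted Fisher p = 0.0328).

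TRBV30 had 63.6% of 33 and TRBV23 61.1% of 18 in Combined, against 60.9% in all other genes for each (adjusted Fisher p = 1 for both). The intervals of these shares, 45.1 to 79.6% for TRBV30 and 35.7 to 82.7% for TRBV23, are wide enough to hold the TRBV3 value. In the other 5 libraries 13 of 14 TRBV30 rearrangements used TRBJ2. TRBV3 was the member whose TRBJ2 use passed the test in Combined.

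Within the cluster, TRBV3 paired most with TRBJ2-5, a J gene picked out here after its values were seen and so not tested. It was used by 50 of 187 TRBV3 rearrangements (26.7%, 20.5 to 33.7), against 11.7% of the genes outside the 5. By library, CSF1R had 3 such joins among 15, CTX 2 among 11, CTX2 3 among 16, Combined 37 among 132, PBS2 4 among 9 and PBS1 1 among 4. Each was above the share of the genes outside the 5 in its library, which lay between 10.7% and 14.1%. TRBJ1-6 was at the other end, with 1 of 187 TRBV3 rearrangements (0.535%), against 3.93%.

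TRBV17 paired most with TRBJ2-1 and TRBJ2-7, each in 31 of 176 (17.6%), against 9.70% and 15.5% outside the 5 genes. TRBV30 was led by TRBJ2-4 with 8 of 47 (17.0%), and TRBJ1-3, TRBJ1-5 and TRBJ1-6 each had 0 of its 47, which allows a share of up to 6.38%. TRBD2, the D gene of the second cluster, was called in 37.4% of TRBV3 and 34.1% of TRBV17 rearrangements, but in 19.1% of TRBV30 and 18.2% of TRBV23 ones, against 28.7% outside the 5 genes.

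The TRBV gene most like TRBV3 in TRBJ use was TRBV31, with a Pearson r of 0.80 across 12 TRBJ genes. For TRBV17 it was TRBV14 (r = 0.87) and for TRBV30 it was TRBV19 (r = 0.62), each out of 15 genes with at least 30 rearrangements. All genes share the same libraries and the same general preference among TRBJ genes, so these coefficients describe likeness only. TRBV23 had too few rearrangements for a profile.

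**Figure D5:**
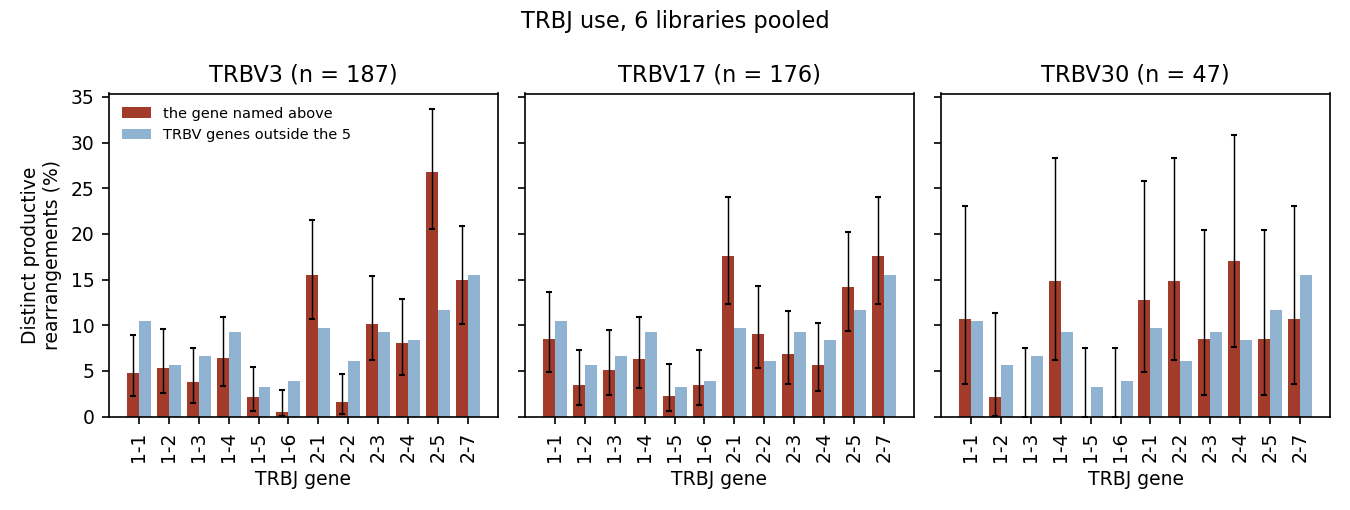
Share of distinct productive rearrangements (vertical axis, %, 6 libraries pooled) joined to each TRBJ gene (horizontal axis) for TRBV3, TRBV17 and TRBV30 in red, with exact 95% intervals, beside the TRBV genes outside the 5 in blue. TRBV3 is highest at 2-5 with 26.7%, against 11.7%, and lower than the blue bars at 1-1 and 1-6.

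TRBV23 had the longest mean CDR3 of the 4 genes, and TRBV17 differed between libraries. Productive CDR3s averaged 16.5 ± 1.65 residues for TRBV23, 14.2 ± 1.59 for TRBV3, 13.9 ± 1.46 for TRBV17 and 13.4 ± 1.38 for TRBV30, against 13.8 ± 1.53 for the genes outside the 5 (SD over rearrangements). In Combined 0 of 18 TRBV23 CDR3s had 13 or fewer residues, which allows a share of up to 16.7%, against 40.1% of all other genes (adjusted Fisher p = 5.27e-04). Of the 21 genes tested, 38.1% passed. The TRBV23 call was lost in high-confidence contigs, on 7 rearrangements (adjusted Fisher p = 0.0927), and with a limit of 12 residues (adjusted Fisher p = 0.0811), with 0 short CDR3s in both. The added 8 bases before the usual opening lengthen these CDR3s, and counted from the opening onward the TRBV23 ones had a median of 41.5 bases, next to 42 in TRBV3, TRBV17 and TRBV30.

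TRBV17 had a short CDR3 in 38 of 130 Combined rearrangements (29.2%), against 40.2% of all other genes (log2 odds ratio -0.69, adjusted Fisher p = 0.0299). In the other 5 libraries the direction turned, with 50.0% of 46 in TRBV17, against 40.9% (adjusted Fisher p = 0.455). By library the TRBV17 share was 47.4% in CSF1R, 42.9% in CTX, 50.0% in CTX2 and 55.6% in PBS2, with 3 of 5 in PBS1. All 5 lay above the Combined value. Within Combined the call also rests on the limit chosen: with 12 or fewer residues TRBV17 had 16.9%, against 18.7% of all other genes (log2 odds ratio -0.15, adjusted Fisher p = 0.720).

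TRBV3 had a short CDR3 in 30.3% of 132 Combined rearrangements, against 40.2% (log2 odds ratio -0.62, adjusted Fisher p = 0.0578). TRBV30 had 42.4% of 33, against 40.0% (log2 odds ratio 0.16, adjusted Fisher p = 0.902). Neither passed the test.

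Cells led by these genes were seldom in expanded clones. A clone was the set of cells of 1 library with the same leading TRBV gene and CDR3 nucleotide sequence. Of 384 cells led by TRBV3, TRBV17, TRBV23 or TRBV30, 11 were in clones of 2 or more (2.86%, 1.44 to 5.07), against 11.3% of 9911 cells led by other genes. Without Combined, which holds most of the cells, the share was 6.19% of 113 (2.53 to 12.3), against 34.0% of 2994. The largest clone of the 5 genes had 3 cells, against 117 in other genes.

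Counted by cells, the gap was widest in CTX2 and CTX. In CTX2 0 of 21 cells of the 5 genes were in a clone, which allows up to 14.3%, against 61.8% of 1064 cells of other genes. In CTX 2 of 25 were (interval 0.984 to 26.0%), against 36.5% of 507. In PBS2 0 of 18 were, with an exact upper bound of 18.5%, against 17.1% of 414, so a difference was not detectable there. Counted by clones, 0 of 21 in CTX2 had 2 or more cells (exact upper bound 16.1%), against 12.1% of 462 in other genes. For CTX this was 1 of 24 (0.105 to 21.1%), against 10.3% of 359. Both clone intervals thus held the value of other genes.

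In PBS1 3 of 12 cells of the 5 genes were in a clone (interval 5.49 to 57.2%), against 38.3% of 180. CSF1R had 5.41% of 37, against 4.10% of 829, and Combined 1.48% of 271, against 1.47% of 6917. Cells of 1 clone are not independent, so these cell intervals are too narrow. Counted by clones, 5 of 378 clones of these genes had 2 or more cells (1.32%, 0.431 to 3.06), against 178 of 8970 (1.98%), which lies inside the interval. Without Combined these were 3 of 109 (2.75%, 0.571 to 7.83), against 133 of 2110 (6.30%), again inside the interval.

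The 5 expanded clones were 3 of TRBV3 and 2 of TRBV17, and their CDR3s are shown with the number of cells, with capitals as above.
TRBV17 with TRBJ1-6, PBS1, 3 cells: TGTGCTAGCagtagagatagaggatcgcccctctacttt
TRBV17 with TRBJ1-1, CSF1R, 2 cells: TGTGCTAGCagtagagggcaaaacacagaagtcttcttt
TRBV3 with TRBJ2-5, CTX, 2 cells: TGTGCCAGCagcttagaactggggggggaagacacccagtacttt
TRBV3 with TRBJ1-1, Combined, 2 cells: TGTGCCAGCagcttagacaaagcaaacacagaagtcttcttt
TRBV3 with TRBJ2-1, Combined, 2 cells: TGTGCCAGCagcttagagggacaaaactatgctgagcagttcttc
All 3 cells of the PBS1 clone carried the alpha chain genes TRAV6-7-DV9 and TRAJ6, and both cells of the CTX clone carried TRAV3-3 and TRAJ15. In the CSF1R clone 1 of 2 cells had an alpha contig. In each of the Combined clones both cells had an alpha contig, but the leading alpha V and J genes differed between the 2 cells. With the deposited clonotype identifier, Combined had 0 such cells and the 5 genes 1.56% in all.

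Alpha partners were spread over many genes. An alpha contig was found in 78.0% of 168 TRBV3 cells, 73.8% of 172 TRBV17 cells and 87.5% of 40 TRBV30 cells, against 82.0% of cells led by genes outside the 5. TRBV3 clones with an alpha chain, 128 in number, used 47 TRAV genes and were led by TRAV7D-5 with 10 clones (7.81%, 3.81 to 13.9), against 2.13% of 7272 clones of other genes. TRBV17 clones, 125 in number, used 43 TRAV genes and were led by TRAV6-6 with 13 clones (10.4%, 5.65 to 17.1), against 5.42%.

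TRBV30 clones, 35 in number, used 20 TRAV genes, with TRAV6-7-DV9 and TRAV8D-1 in 4 clones each (11.4%). The leading alpha J genes were TRAJ49 with 8.59% for TRBV3, TRAJ57 with 6.40% for TRBV17 and TRAJ56 with 11.4% for TRBV30, against 4.85%, 3.38% and 4.07% in other genes. These were picked as the most frequent and were not tested. The mouse alpha locus holds near-identical copies of many V genes, so the naming of a copy is uncertain. No CDR3 amino acid sequence of the 4 genes was found in more than 1 library, with 0 of 186 for TRBV3 and 0 of 176 for TRBV17, which allows up to 1.61% and 1.70%. Outside the 5 genes 80 of 9577 sequences were shared (0.835%), which is under both limits, so a like share in TRBV3 or TRBV17 was not detectable at this depth.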

How the data were processed

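Receptor contigs of single T cells were taken as deposited by the authors, with their read counts and UMI counts per contig (whole numbers, not normalized), cell call, gene names, CDR3, productive status and clonotype. Cell Ranger 3.0.2 and the builds mm10 and GRCm38 are named in the submitters' processing notes. The receptor reference and its strain are not given in the sources used here. A shared number in the title linked 6 of the library names to samples, and 5 names were not used. For CSF1R the link holds for the group only.

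Beta contigs in called cells were used with no further minimum. Rearrangements without a called CDR3 were told apart by contig length. Each cell took its productive beta contig with the most UMIs as leading. Doublets were kept. Intervals are exact Clopper-Pearson 95% intervals and, like the limit of 3 counts for a count of 0, cover counting error only. Genes with at least 5 rearrangements in Combined were tested one by one against all other TRBV genes by two-sided Fisher's exact tests, with Benjamini-Hochberg adjustment over all genes tested and a threshold of 0.05. Odds ratios had 0.5 added to each count. Distinct rearrangements of 1 library may come from 1 animal. Treated libraries (4) were compared with the untreated one (1), with PBS2 left out, by an exact permutation test that cannot pass the threshold at this size.

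The genes named beside the 5 were the 3 lowest and the 1 highest by mean share, the gene most like each in TRBJ use, the leading alpha partners, and the largest clones. TRBV15 and TRBV12-2 were added after their productive shares were seen. TRBJ2-5 and the CDR3 opening were singled out after their values were seen. The members and lists were chosen with earlier results of these data known. Gene positions came from a RefSeq table of GRCm38.p6, an assembly of another strain. Expression matrices were not analysed here. Tests ran in scipy 1.17.1 and tables in pandas 2.3.3, figures were drawn with matplotlib 3.10.9, under numpy 2.4.6 and Python 3.11.15, and the functions were tested on simulated data.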

Additional observations from a re-analysis of the deposited data

Results flagged for a closer look

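Among the 4 treated libraries, the TRBV30 share of productive rearrangements in CTX, 1.52%, stood apart from the other three, which lay between 0.389% and 0.455%. It rests on 6 rearrangements of 395, with an interval of 0.559 to 3.28%. The TRBV23 share in CTX2, 0%, stood apart below the other three at 0.228 to 0.253%. It is a count of 0 of 514, which allows up to 0.584%, so the gap is within counting error. Dixon's criterion, which picked out both, is set so that chance gives such a gap in about 1 in 20 groups of normally distributed values, and shares that rest on so few counts at unequal depth need not keep to that rate.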

How the results depend on the processing

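No paired analysis was possible because the untreated side has 1 library, so fewer than 2 replicate numbers could be shared. No alternative of the treated and untreated comparison could pass the threshold, so its counts of 0 say nothing of stability. The TRBV30 difference turned to 0.22 points with PBS2 counted as untreated and 0.69 with at least 2 UMIs. It was 0.28 without Combined and CTX2 (chosen after seeing the data), and lay between -0.288 and 0.0891 with each treated library left out. The number of genes whose TRBJ2 use passed, 7 in Combined, was 2 without cells of several productive chains (17 genes tested) and 0 in the other 5 libraries pooled. For TRBV23 the TRBJ2 log2 odds ratio turned to 1.46 in high-confidence contigs and 0.94 with at least 2 UMIs, on 7 and 9 rearrangements. The number of genes whose short CDR3 share passed, 8, was 5 in the other 5 libraries, where the log2 odds ratio of TRBV17 turned to 0.53. TRBV17 also no longer passed with all 6 libraries pooled (adjusted Fisher p = 0.197) or with 12 or fewer residues (0.720). For TRBV23 the short CDR3 call was lost with 12 or fewer residues (adjusted Fisher p = 0.0811) and in high-confidence contigs (0.0927), with 0 short CDR3s in both. That of TRBV30 turned to -0.055 without cells of several productive chains. The number of genes under 90% productive, 13, was 6 in high-confidence contigs, with at least 2 UMIs, and without rearrangements lacking a CDR3, and 12 to 17 with each library left out. The share of the 5 genes, 4.25%, was 3.82% without cells of several productive chains and 4.16 to 5.11% with each library left out, both chosen after seeing the data. The TRBV17 difference between treated and untreated libraries, -1.86 points, was -0.24 without cells of several productive chains. The share of their cells in clones, 2.86%, was 2.15 to 6.19% with each library left out, highest without Combined. Of 213 recomputed values, 133 for single genes and 41 summaries kept their direction and their side of the threshold or stayed within the main interval, the summaries counting those 0s too. The causes were not tested. Depth limits PBS1 most, with 141 productive rearrangements.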

Other observations

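Contigs outside called cells were not used in any comparison above. TRBV17 had 57 of its 274 beta contigs there (20.8%, exact interval 16.2 to 26.1), against 14.6% of 14589 contigs of genes outside the 5, with 53 of the 57 productive and a median of 1 UMI. PBS2 held 21 of these 57. TRBV3 had 33 of 268 outside cells (12.3%), TRBV23 10 of 151 (6.62%) and TRBV30 4 of 55 (7.27%).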
